A study of Homo sapiens with 12 samples.

Results

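The question was which part of the transcriptional response of NB4 cells to all-trans retinoic acid (ATRA) differs when the long noncoding RNA HOTAIRM1, transcribed from the HOXA gene cluster, is knocked down. NB4 is an established line from a human acute promyelocytic leukemia, and ATRA drives it toward granulocytes. The quantity examined was the difference in response, defined as the ATRA change in knockdown cells minus the ATRA change in control cells on the log2 scale. It used 12 of 12 arrays and 18404 genes, each represented by its brightest probe set annotated to 1 gene, out of 32321 probe sets. A positive difference means a smaller fall or a larger rise under ATRA in knockdown cells, and it can come from a lower level before ATRA as well as from a higher level after it.

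Each kind of cell was profiled without treatment and after 96 hours in 0.5 uM ATRA. Wild type NB4 (1 array per state) and NB4 with a scrambled shRNA (2 arrays per state) served as controls. The knockdown cells carried shRNA1 (2 arrays per state) or shRNA2, a different construct (1 array per state). The shRNA-bearing cells share a lentiviral vector with a GFP marker and are stable clones of sorted single cells, per the design text, and wild type NB4 is their parent. Each numbered duplicate is counted as a line of its own, which gives 3 control and 3 knockdown lines, and the ATRA change of a line pairs its untreated and ATRA arrays by the names in the labels. Whether the duplicates came from separate clones is not given in the labels, so the p-values reflect only how these samples spread, and some of that spread may be technical. Clone identity and knockdown cannot be told apart, and no probe set is named for HOTAIRM1, so the depth of the knockdown was not measured here.

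Genes of promyelocyte granule proteins were read as a check of the cell type. On the 12 arrays MPO lay between 12.67 and 13.81, PRTN3 between 11.55 and 13.49, AZU1 between 9.30 and 11.03, ELANE between 8.88 and 9.35 and CTSG between 7.56 and 11.45. CTSG differed most among untreated arrays, from 8.03 in scrambled replicate 1 to 11.45 in shRNA2. CD33, the other marker set down for NB4, had no named probe set. Arrays of ATRA-treated control cells had a narrower spread than the other arrays. Their upper quartiles were 9.11, 9.17 and 9.11, against 9.23 to 9.28 on the other 9, and their lower quartiles were 6.45 to 6.49, against 6.38 to 6.44.

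A cell that commits to divide switches on genes for DNA synthesis late in G1, under E2F transcription factors that the retinoblastoma protein family holds in check. Genes for mitosis follow later, largely under a complex that reads the cell cycle homology region (CHR) motif in their promoters. During terminal granulocytic maturation under ATRA, myeloid cells stop dividing, lower both programs and raise genes for granules, adhesion and the oxidative burst.

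No single gene passed the test of the difference. With limma, 0 of 18404 genes (0%) had an adjusted p under 0.05 in either direction, and the smallest adjusted p was 0.27. At an unadjusted p under 0.05 the difference was positive for 1051 genes (5.71%) and negative for 1764 (9.58%). That split followed the scaling of the arrays, with 1524 positive and 1236 negative when each array was centred on its median, and 884 and 996 with cyclic loess. In 4 lists that cover loading of the replicative helicase, the fork, deoxynucleotide supply, and repair with the replication checkpoint, 88 genes were measured, of which 57 were positive and 0 negative at that level. Their difference was above 0 for 85 of 88, against 48.7% of all genes, and their median difference was 0.46, against -0.01 over all genes. The ATRA changes of the 3 knockdown lines all lay above those of the 3 control lines for 57 of the 88 (64.8%), against 9.16% of all genes, and all lay below for 0, against 13.4%. The lists were chosen with earlier results of these data known. Their counts thus describe these arrays and are not separate evidence.

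The replication and repair genes fell in both kinds of cell, and the median fall was smaller in the knockdown. In control cells 81 of 88 fell and 1 rose (limma, adjusted p under 0.05, against 20.9% of all genes lower and 15.2% higher), with a median change of -0.91. In knockdown cells 55 fell and 1 rose (against 14.7% and 10.1%), with a median change of -0.48. Bulk RNA cannot tell fewer cells in S phase from less of each RNA per cell.

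**Figure D1:**
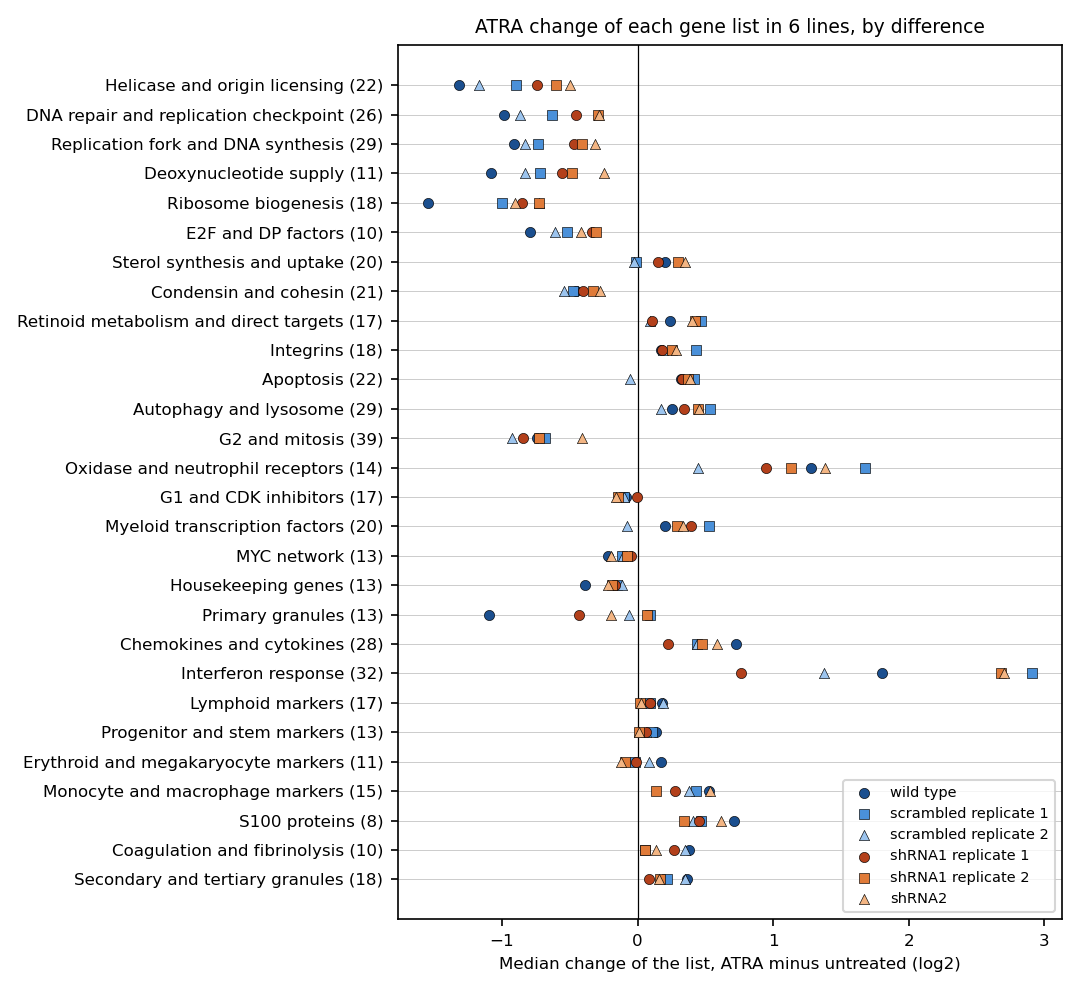
Median ATRA change (log2, x axis) of each gene list in each of 6 lines, with the number of measured genes in brackets and the lists ordered by their median difference. Blue symbols are the 3 control lines and orange symbols the 3 knockdown lines. The 4 replication and repair lists show blue to the left of orange, whereas G2 and mitosis genes show the colours mixed. The E2F and DP list and the condensin and cohesin list also show blue to the left of orange. Secondary and tertiary granules and progenitor markers show the reverse.

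Genes that license origins and load the helicase had the largest median difference, 0.52 over 22 genes. Of them, 16 (72.7%, against 5.71% of all genes) were positive at an unadjusted p under 0.05. The median ATRA change of the 22 was -1.31 in wild type, -0.89 and -1.17 in the scrambled replicates, -0.74 and -0.60 in the shRNA1 replicates and -0.50 in shRNA2. All 3 control lines lay below all 3 knockdown lines. ORC6, a subunit of the origin recognition complex, stood at 9.19, 9.08 and 9.13 in untreated control cells (wild type, then scrambled replicates 1 and 2) and at 9.16, 9.18 and 9.17 in untreated knockdown cells (shRNA1 replicates 1 and 2, then shRNA2). With ATRA it was 8.16, 8.24 and 8.17 in control cells and 8.67, 8.80 and 8.63 in knockdown cells. The untreated arrays overlapped and the ATRA arrays were apart, with all knockdown values higher. ORC6 had a difference of 0.47 (SE 0.10, limma adjusted p 0.27).

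MCM2, a subunit of the replicative helicase, was at 10.91, 10.93 and 10.89 in untreated control cells and at 10.91, 10.94 and 10.73 in untreated knockdown cells, in the same order of lines. With ATRA it was at 9.62, 10.07 and 9.75 in control cells and at 10.42, 10.43 and 10.25 in knockdown cells. Again only the ATRA arrays were apart. MCM2 had a difference of 0.60 (SE 0.15), GINS3, part of the GINS complex of the active helicase, 0.61 (SE 0.16), both with a limma adjusted p of 0.27. The list had 2 exceptions to the positive sign. DBF4, the activator of the CDC7 kinase, had a difference of -0.44 (SE 0.28) at a mean level of 6.64, and RECQL4 was at 0.00.

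Genes of the fork itself (29 measured) had a median difference of 0.44. Of them, 21 (72.4%, against 5.71% of all genes) were positive at an unadjusted p under 0.05. The lines were apart for 22 (75.9%, against 9.16% of all genes). DNA2, a nuclease and helicase that trims Okazaki fragments, led the fork genes. It stood at 10.12, 10.11 and 10.12 in untreated control cells and at 10.24, 10.10 and 9.83 in untreated knockdown cells. With ATRA it stood at 8.97, 9.22 and 8.96 in control cells but at 9.76, 9.78 and 9.97 in knockdown cells. DNA2 fell by 1.07 in control cells (limma adjusted p 8.8e-05), whereas its change of -0.22 in knockdown cells did not pass (limma adjusted p 0.19). The difference of DNA2 was 0.85 (SE 0.16), with an adjusted p of 0.27. RFC2, of the clamp loader, had a difference of 0.48 (SE 0.11), and LIG1, the ligase that seals Okazaki fragments, had 0.56 (SE 0.14).

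**Figure D2:**
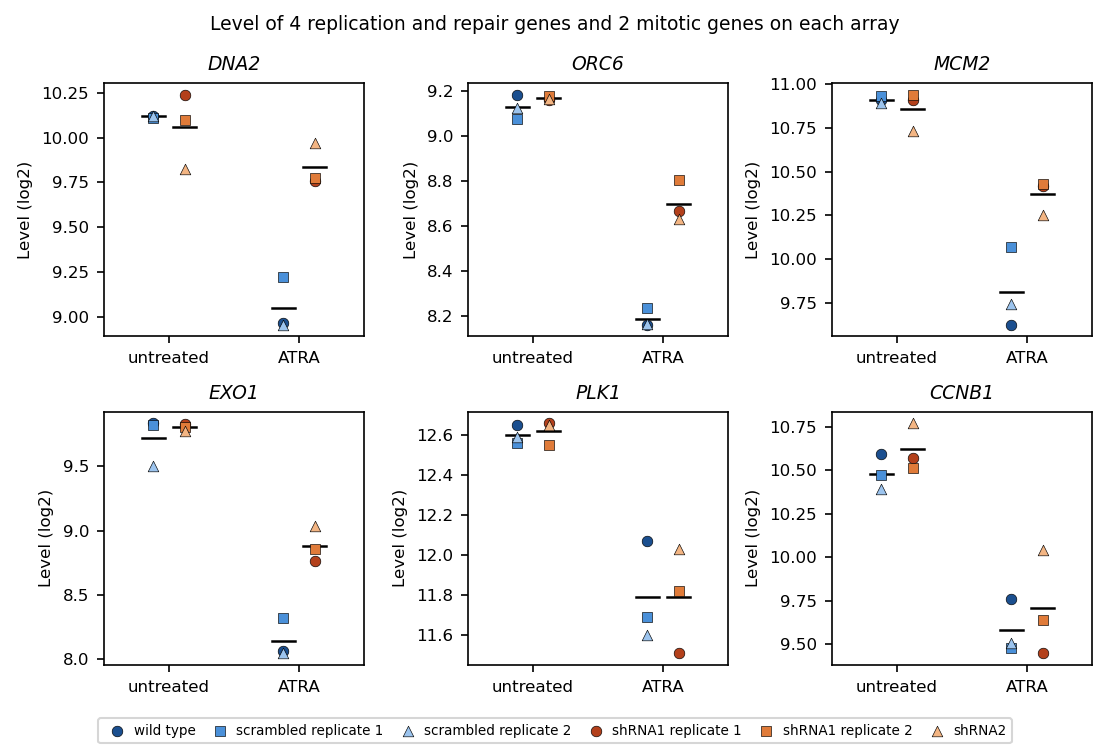
Level (log2) of DNA2, ORC6, MCM2 and EXO1 and of the mitotic genes PLK1 and CCNB1 on each of 12 arrays, with control cells left and knockdown cells right in each state and black bars at the mean of 3 arrays. The ATRA arrays of the first 4 genes do not overlap between control and knockdown cells; those of PLK1 and CCNB1 do.

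Enzymes that supply deoxynucleotides (11 measured) all had a positive difference, with a median of 0.43. But 3 (27.3%, against 5.71% of all genes) reached an unadjusted p under 0.05. These were DUT, which clears dUTP (0.64, SE 0.19), SHMT1, a one-carbon enzyme (0.45, SE 0.14), and RRM1, the large subunit of ribonucleotide reductase (0.37, SE 0.15). The list leans on the wild type pair: its median was 0.23 without wild type in both states. Repair and checkpoint genes (26 measured) also all had a positive difference, with a median of 0.45. Of them, 17 (65.4%, against 5.71% of all genes) were positive at an unadjusted p under 0.05. EXO1, an exonuclease of mismatch repair and recombination, stood at 8.06, 8.32 and 8.04 in ATRA-treated control cells and at 8.76, 8.85 and 9.03 in ATRA-treated knockdown cells. Untreated, EXO1 was at 9.84, 9.82 and 9.51 against 9.83, 9.81 and 9.78. The arrays thus overlapped before ATRA and not after it, and the difference of EXO1 was 0.66 (SE 0.16). RAD54L, a motor of homologous recombination, had 0.58 (SE 0.14), and FANCB, of the Fanconi core complex, had 0.52 (SE 0.12). The limma adjusted p was 0.27 for DUT, SHMT1, EXO1, RAD54L and FANCB and 0.31 for RRM1.

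The replication genes differed between the kinds of cell mainly after ATRA, with a median near 0 before it. Before ATRA, the median of knockdown minus control over the 88 genes was 0.02, and the untreated comparison as a whole called 0 of 18404 genes with limma (0%), with 299 higher (1.62%) and 428 lower (2.33%) at an unadjusted p under 0.05. After ATRA the median was 0.47. In that state limma called 10 genes higher (0.0543%) and 1 lower (0.00543%), and DNA2, ORC6 and EXO1 were 3 of the 10. The ATRA comparison and the difference share the ATRA arrays, so these are views of the same values and not separate evidence.

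**Figure D3:**
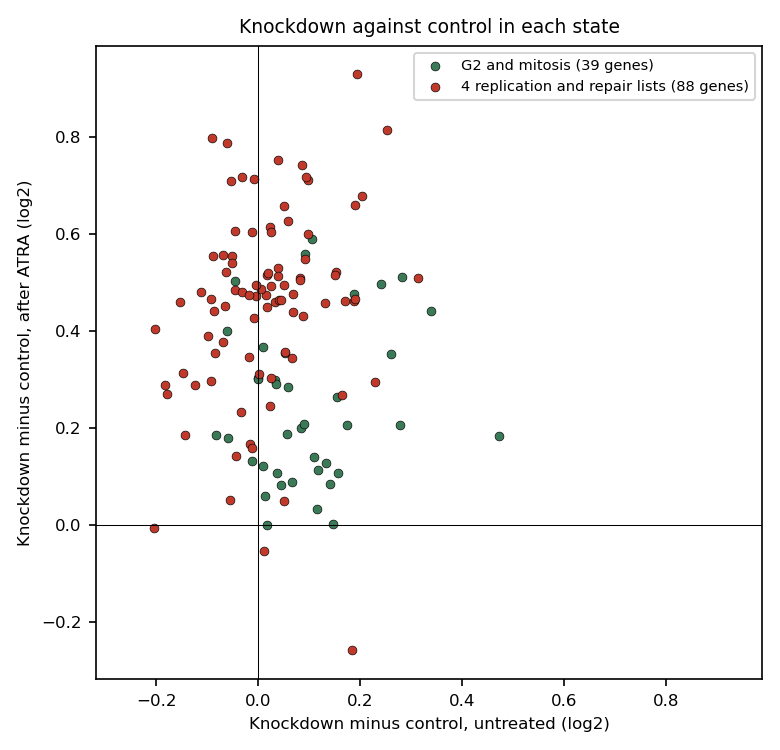
Knockdown minus control (log2) for 88 replication and repair genes (red) and 39 G2 and mitosis genes (green), untreated on the x axis and after ATRA on the y axis, 1 point per gene. Red points centre near 0 (median 0.02) on the x axis and lie mostly above 0 (median 0.47) on the y axis.

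The design holds a pair of comparisons with no array in common: shRNA1 against scrambled cells, and shRNA2 against wild type cells. Of the 88 replication and repair genes, 83 had a positive difference in both, against 30.0% of all genes, and 0 had a negative difference in both, against 35.8%. The median difference was 0.32 with shRNA1 and 0.68 with shRNA2. For helicase and licensing genes these medians were 0.33 and 0.83, and for fork genes 0.30 and 0.66. The controls differ too: scrambled cells are stable clones with the vector, and wild type cells are their parent. The median ATRA change of the 88 genes was -1.02 in wild type and -0.76 and -0.92 in the scrambled replicates. Construct and control thus cannot be told apart when the medians of this pair are compared. With scrambled and shRNA1 arrays alone, 21 of the 88 were positive at an unadjusted p under 0.05, against 632 of all 18404 genes.

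**Figure D4:**
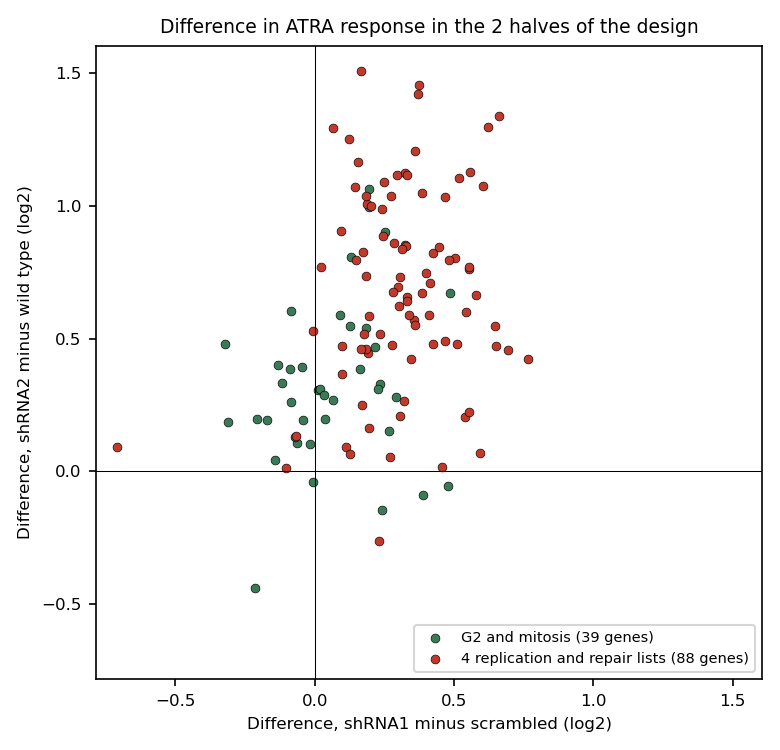
Difference in ATRA response (log2) of 88 replication and repair genes (red) and 39 G2 and mitosis genes (green), for shRNA1 minus scrambled on the x axis and shRNA2 minus wild type on the y axis, which share no array. Of the red points, 83 lie in the upper right quadrant.

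Genes of G2 and mitosis had smaller differences. Their median difference was 0.12 over 39 genes, 30 of them above 0. KIF23, FOXM1 and ESPL1 were positive at an unadjusted p under 0.05, which is 3 of 39 (7.69%), against 5.71% of all genes. The lines were apart for 1 (2.56%), against 9.16% of all genes. Of the 39, 35 fell in control cells and 33 in knockdown cells, against 20.9% and 14.7% of all genes. The median changes were -0.80 and -0.67. PLK1, a kinase of mitotic entry, was at 12.07, 11.69 and 11.60 in ATRA-treated control cells and at 11.51, 11.82 and 12.03 in ATRA-treated knockdown cells, which overlap. Its difference was -0.02 (SE 0.19), and that of CCNB1, the cyclin of mitotic entry, was -0.01 (SE 0.20). Both had fallen in each kind of cell, PLK1 by 0.82 in control cells and by 0.83 in knockdown cells. KIF23, a motor of cytokinesis, had 0.46 (SE 0.18) and FOXM1, an activator of mitotic genes, 0.47 (SE 0.19), with limma adjusted p of 0.30 for each. Condensin and cohesin genes had a median of 0.19 over 21. Whether the replication and mitosis lists differ was not tested.

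Upstream regulators had smaller median differences than the replication lists. Of 10 E2F and DP genes 8 had a positive difference, against 48.7% of all genes, with a median of 0.22. E2F1, an activator of replication genes, had 0.46 (SE 0.16), E2F3 had 0.43 and E2F8, a repressor of the same targets, had 0.44, each at a limma adjusted p of 0.28. Among 17 genes of G1 and its inhibitors the median was 0.10. RBL1, the retinoblastoma relative p107, was at 9.40, 9.80 and 9.66 in ATRA-treated control cells and at 10.27, 10.13 and 10.27 in ATRA-treated knockdown cells, with all knockdown values higher. Untreated, RBL1 was at 10.24, 9.90 and 10.56 against 10.22, 10.07 and 10.04, and its difference was 0.73 (SE 0.21). CDKN1A, the CDK inhibitor p21, had a difference of -0.27 (SE 0.11, limma adjusted p 0.31), after rising by 0.31 in control cells. Ribosome biogenesis genes (18) had a median of 0.25. Of them, 0 were positive or negative at an unadjusted p under 0.05 in limma, against 5.71% and 9.58% of all genes. The MYC network had a median of 0.03, which turned to -0.04 with quantile normalization. These 4 medians moved with the level of the genes: relative to genes of like level, they were 0.09 for E2F and DP, 0.03 for G1 (9 of 17 positive), 0.12 for ribosome biogenesis and -0.07 for MYC (4 of 13 positive), against 9200 of 18404 genes positive on that measure.

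Promoters were read for the letters of the E2F and CHR motifs, because these separate the groups in textbook accounts. E2F matches were TTTCCCGC, TTTGGCGC, TTTCGCGC or TTTGCCGC, CHR matches were TTTGAA or TTCGAA, both on either strand, in 300 bases from 250 before to 50 after the RefSeq start (GRCh38.p14). An E2F match was present in 23 of 76 replication and repair promoters with an entry (30.3%), in 9.38% of G2 and mitosis promoters and in 4.53% of 14230 promoters of all genes tested. A CHR match was present in 10.5% of replication and repair promoters, in 65.6% of mitosis promoters (21 of 32) and in 13.3% of all. Helicase and licensing promoters held an E2F match most often, at 55.6%. Of genes with a positive difference at an unadjusted p under 0.05, 10.5% had an E2F match, and of those with a negative difference 2.04%. The positive set includes 57 of the 88 replication and repair genes. Positive genes were also most frequent at high levels and negative genes at low to middle levels. The motif shares were not compared among genes of like level. A match is a description of letters and not a bound site.

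Below are the 150 bases before the start of 6 genes, 5′ to 3′ on the strand of the gene, with the matched motif in capitals. The first 4 are replication genes with an E2F match and a positive difference of 0.65, 0.59, 0.56 and 0.49, and the last 2 are mitosis genes with a CHR match and a difference of -0.02 and 0.02. Some genes were left out of the choice beforehand by their position in the genome. Of the rest, the printed helicase and fork genes are the 2 of smallest p in each list with a match in these bases. The printed mitosis genes are the 2 with a match in these bases and the difference nearest 0, a rule set after the values were seen. They lie at chr16:88803639-88803788 (+) for CDT1, chr7:100101398-100101547 (-) for MCM7, chr19:48170345-48170494 (-) for LIG1, chr11:65261812-65261961 (+) for POLA2, chr16:23678739-23678888 (+) for PLK1 and chr3:172750576-172750725 (+) for ECT2.
CDT1: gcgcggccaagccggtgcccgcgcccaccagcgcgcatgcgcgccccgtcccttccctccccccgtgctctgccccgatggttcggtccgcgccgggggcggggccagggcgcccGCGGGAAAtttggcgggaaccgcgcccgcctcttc
MCM7: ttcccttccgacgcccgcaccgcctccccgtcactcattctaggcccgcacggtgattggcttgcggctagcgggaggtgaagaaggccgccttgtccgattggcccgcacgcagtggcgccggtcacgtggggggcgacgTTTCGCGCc
LIG1: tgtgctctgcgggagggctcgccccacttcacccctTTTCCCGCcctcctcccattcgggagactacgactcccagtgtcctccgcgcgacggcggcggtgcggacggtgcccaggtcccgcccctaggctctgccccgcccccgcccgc
POLA2: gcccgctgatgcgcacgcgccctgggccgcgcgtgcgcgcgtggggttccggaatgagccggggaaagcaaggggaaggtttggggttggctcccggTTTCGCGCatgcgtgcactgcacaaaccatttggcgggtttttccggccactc
PLK1: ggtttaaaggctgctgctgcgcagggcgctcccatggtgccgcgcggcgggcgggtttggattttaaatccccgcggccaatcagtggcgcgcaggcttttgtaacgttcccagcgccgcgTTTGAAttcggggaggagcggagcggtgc
ECT2: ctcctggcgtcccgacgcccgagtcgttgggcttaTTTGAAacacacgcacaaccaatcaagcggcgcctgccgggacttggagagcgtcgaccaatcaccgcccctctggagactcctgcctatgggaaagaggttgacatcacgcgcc

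CDT1 loads the helicase at origins, MCM7 is a helicase subunit, POLA2 is a subunit of polymerase alpha, and ECT2 acts in cytokinesis. In the CDT1 promoter the E2F letters belong to the opposite strand and begin 35 bases before the start, and in MCM7 they begin 9 bases before it. PLK1, CCNB1, the genes with printed promoters and the exceptions DBF4 and RECQL4 were picked after their values were seen. The other genes named with a list are among its 3 members of smallest unadjusted p.

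The difference also varied with the level of the gene. Over 10 bins of equal gene number by mean level, numbered from dim to bright, the median difference was -0.05 in bin 1, -0.15 in bins 3 and 4, 0.17 in bin 8 and 0.16 in bin 9. Olfactory receptor genes, which are mostly silent outside the nose, serve here as a gauge of background. They had a median difference of -0.10 over 360 genes. At an unadjusted p under 0.05, 43 were negative and 4 positive, against 9.58% and 5.71% of all genes. Bin 2, which holds their median level of 6.16, had 12.5% negative and 1.30% positive. The array medians of the receptors were 6.23 to 6.33 in ATRA-treated control cells and 6.06 to 6.20 elsewhere. The part of this shift in the results was not tested. Relative to the median of its bin, the median difference was 0.39 for helicase and licensing, 0.31 for the fork, 0.30 for deoxynucleotides and 0.35 for repair, while for G2 and mitosis the sign turned, to -0.02.

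**Figure D5:**
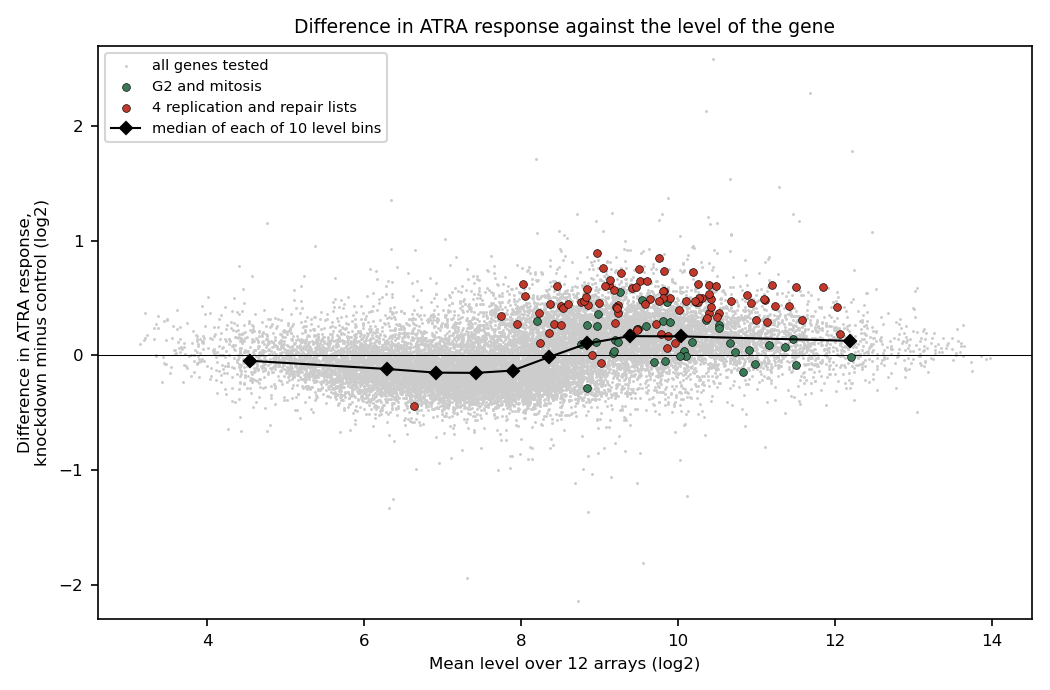
Difference in ATRA response (log2, y axis) against the mean level over 12 arrays (log2, x axis) for 18404 genes (grey), 39 G2 and mitosis genes (green) and 88 replication and repair genes (red), with black diamonds at the median of each of 10 level bins. The diamonds run from -0.15 at low levels to 0.17 at high levels, and most red points lie above them.

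Among genes whose ATRA changes in the 3 knockdown lines all lay on the same side of those in the 3 control lines, the 12 of smallest p with a positive difference were AASDH, EMC3-AS1, DNA2, STK39, TUBGCP5, LOC100130691, HELLS, CPSF6, ORC6, IFT80, IFT46 and ST7, none of which passed (limma adjusted p 0.27 for each). Of these, 11 fell in control cells, against 20.9% of all genes. In knockdown cells 4 fell and 1 rose, against 14.7% and 10.1%. Genes chosen by their difference are likely to change unequally in the kinds of cell, so these counts are not separate evidence. AASDH was at 8.63, 8.56 and 8.65 in untreated control cells and at 8.0, 8.10 and 8.01 after ATRA. In knockdown cells AASDH was at 8.57, 8.63 and 8.72 untreated and at 8.68, 8.63 and 8.59 after ATRA. AASDH fell by 0.58 in control cells (limma adjusted p 0.00014), whereas its change of -0.01 in knockdown cells did not pass (limma adjusted p 0.95). Its difference was 0.57 (SE 0.10). HELLS, a chromatin remodeler needed for DNA methylation, was at 8.27, 8.70 and 8.54 in ATRA-treated control cells and at 9.25, 9.16 and 9.30 in ATRA-treated knockdown cells, with a difference of 0.85 (SE 0.17). TUBGCP5, of the microtubule-nucleating gamma-tubulin complex, had 0.72 (SE 0.14), STK39, a kinase that controls ion cotransporters, had 0.60 (SE 0.11), and CPSF6, of messenger RNA 3′ processing, had 0.53 (SE 0.10). IFT80 and IFT46, parts of the ciliary transport particle, had 0.66 (SE 0.14) and 0.49 (SE 0.10).

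By the same rule, the 12 with a negative difference were MAGEA8, OLIG3, P4HA2, MYT1, OR2T10, KCNT1, LOC285097, IL17B, LINC00965, SMIM23, LHFPL5 and MAGED1, again none passing (limma adjusted p 0.27 for each). Their mean levels were 6.13 to 9.12, against 7.95 to 10.24 for the positive set, and 3 of the 12 lay in level bins 6 to 10, against 11 of the positive 12. Of the 12, 11 rose in control cells, against 15.2% of all genes. In knockdown cells 8 fell and 0 rose, against 14.7% and 10.1%. The choice by the difference limits these counts in the same way. MAGEA8, a melanoma antigen gene with near-identical relatives, was at 8.87, 9.11 and 8.93 in untreated control cells and at 9.51, 9.42 and 9.53 after ATRA. In knockdown cells MAGEA8 was at 9.08, 9.08 and 9.04 untreated and at 8.94, 8.93 and 9.0 after ATRA. Its difference was -0.63 (SE 0.10), and it was the 1 gene called lower in ATRA-treated knockdown cells. MYT1, a neural zinc finger factor, had -0.53 (SE 0.10), and P4HA2, a collagen prolyl hydroxylase, had -0.56 (SE 0.11). Relative to the median of its level bin, the difference of MAGEA8, which lies in bin 8, was -0.79, that of MYT1 was -0.37 and that of P4HA2 was -0.41. The part of the level shift in these values was not tested.

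The overall size of the response overlapped between the kinds of cell. Over 1759 genes that moved by at least 1 in the wild type pair, the mean change in the wild type direction was 1.07 and 0.75 in the scrambled replicates, 0.95 and 0.94 in the shRNA1 replicates and 1.11 in shRNA2. Integrins had a median difference of 0.17 over 18 genes. Of them, 0 were positive or negative at an unadjusted p under 0.05 in limma, against 5.71% and 9.58% of all genes. Oxidase and neutrophil receptors had a median of 0.11 over 14, and interferon response genes -0.04 over 32, which was 0.00 with arrays centred on their medians. ITGAM, the integrin alpha M chain, stood at 8.36, 8.56 and 10.16 in untreated control cells and at 8.02, 8.40 and 7.31 in untreated knockdown cells. With ATRA it was at 10.38, 10.91 and 10.97 and at 10.51, 10.66 and 10.45. The array of scrambled replicate 2 was already high without ATRA, and ITGAM had a difference of 0.91 (SE 0.57, limma adjusted p 0.43).

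Secondary and tertiary granule genes held the widest spread within a list, from -1.95 to 2.13, with a median of -0.25 over 18. The upper end is BPI, a bactericidal protein of primary granules that was placed in this list. The width of the spread depends on that placement. BPI stood at 9.31, 7.69 and 11.19 in untreated control cells and at 7.88, 8.22 and 6.79 in untreated knockdown cells. After ATRA BPI was at 11.82, 12.23 and 12.04 against 12.38, 12.54 and 12.26, giving 2.13 (SE 0.92, limma adjusted p 0.31). HP, which encodes haptoglobin, had -1.95 (SE 0.84, limma adjusted p 0.31) with overlapping lines, after a rise of 2.32 in control cells. Its difference was -2.97 for shRNA1 minus scrambled but 0.11 for shRNA2 minus wild type. LCN2, the member of this list with the smallest p, had -0.40 (SE 0.12, limma adjusted p 0.27) with lines apart. In the same pair of comparisons LCN2 had -0.28 and -0.63. Primary granule genes, a separate list, had a median of 0.00 over 13. From that list CST7, a protease inhibitor of granulocytes, had -0.91 (SE 0.33, limma adjusted p 0.28) and fell in both kinds of cell. Sterol genes had a median of 0.21 over 20 (0.09 relative to genes of like level), with INSIG1, MVK and FDPS positive at an unadjusted p under 0.05, which is 3 of 20 against 5.71% of all genes. Of these 20, 7 were lower in untreated knockdown cells at an unadjusted p under 0.05, against 2.33% of all genes, and the list's median of knockdown minus control was -0.19 untreated and -0.07 after ATRA. INSIG1, which restrains sterol synthesis, was at 10.89, 10.94 and 11.34 in untreated control cells and at 10.46, 10.33 and 9.98 in untreated knockdown cells, and at 11.13, 11.19 and 11.26 against 10.87, 11.17 and 10.98 after ATRA. The INSIG1 arrays were apart before ATRA, with the knockdown lower, and overlapped after it. Markers of other cell types had negative medians: -0.17 over 15 monocyte, -0.08 over 17 lymphoid (0.02 with cyclic loess), -0.15 over 11 erythroid and megakaryocyte and -0.14 over 13 progenitor markers. Relative to the median of their level bins these became -0.08, 0.03, -0.10 and 0.02, so the sign turned for lymphoid and progenitor markers. The mean level of the monocyte markers was 7.68 to 7.90 in ATRA-treated control cells and 7.35 to 7.78 in ATRA-treated knockdown cells, and their part in the results was not tested. HOXA2, the only HOXA gene of 11 with a named probe set, had a difference of 0.06 (SE 0.15, limma adjusted p 0.86), with the sign turned by array weights.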

How the data were processed

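The deposited values are log2 intensities of Affymetrix ST arrays made with RMA, per the submitters' processing notes, which also name limma, without versions. They were used as deposited. RNA was taken with RNAzol and labelled with a whole-transcript kit, per the labels' protocols. Each gene was represented by the probe set of highest mean among those with 1 gene (19158 probe sets; 11775 are not listed and 1388 have several genes), without a filter on low values. The difference was tested with limma 3.58.1 in R 4.3.3, on 4 arm means of 3 arrays with 8 residual degrees of freedom, two-sided, with Benjamini-Hochberg adjustment over 18404 genes and a threshold of 0.05. A count at an unadjusted p is a description. The fit has no block; the closing section gives the fit with one and the other alternatives (scaling, dim genes, probe set choice, weights, arrays left out). The script was tested on simulated data. Named genes were the HOXA genes, 12 per direction by smallest p with lines apart, and 3 per list. Members, lists, rules and tests were chosen with earlier results of these data known.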

Additional observations from a re-analysis of the deposited data

How the results depend on the processing

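No gene passed an adjusted p of 0.05 with limma in any of 28 alternatives, and the smallest adjusted p was 0.054, without scrambled replicate 2 in both states. The replicate block gave 0 passing genes, with 1116 positive and 1407 negative at an unadjusted p under 0.05, and a random block 1110 and 1848. Deviations of untreated and ATRA arrays of the same name correlated between -0.17 and 0.23 over 6 lines, and 4 of 6 correlated best with their own name. Positive genes at that level numbered 1051, but 663 with quantile normalization, 1716 with array weights, 632 with scrambled and shRNA1 alone and 669 without shRNA1 replicate 2 in both states. Without scrambled replicate 1 in both states they numbered 1525. Negative genes numbered 1764, but 929 without the dimmest 33.3% of genes, 478 with scrambled and shRNA1 alone and 996 with cyclic loess (chosen after seeing the data). Leaving a line out of both states gave 916 without wild type, 1017 without scrambled replicate 2, 1144 without shRNA1 replicate 2 and 960 without shRNA2. It gave 1606 without shRNA1 replicate 1 and 2197 without scrambled replicate 1. Leaving out single arrays gave 1135 to 2175. Centring arrays on their medians gave 1524 positive and 1236 negative. The 88 replication and repair genes gave 57 positive at that level, 21 with scrambled and shRNA1 alone, and 38 to 62 when a line or array was left out. Median differences moved to 0.33 for helicase and 0.30 for fork genes with scrambled and shRNA1 alone, and to 0.31 for fork genes relative to genes of like level. Without wild type in both states they were 0.32 for fork and 0.23 for deoxynucleotide genes, and without scrambled replicate 1 fork genes had 0.54. Leaving out single arrays gave 0.25 to 0.51 for deoxynucleotide genes. HOXA2 changed sign to -0.065 with array weights, -0.029 without scrambled replicate 2 and -0.018 without shRNA2 in both states, and ranged from -0.040 to 0.12 on leaving out single arrays. Of 105 named genes, only HOXA2 changed sign in these alternatives. The cause was not tested. The number of arrays limits the precision.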

Other observations

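Chromatin copying genes, chosen after the values were seen, had a median difference of 0.50 over 12 genes. All 12 had lines apart, against 9.16% of all genes. The list includes HELLS, already named above for its small p, so the choice itself favours such a count. UHRF1, which guides DNA methylation to new strands, was at 8.70, 9.44 and 9.01 in ATRA-treated control cells and at 9.69, 9.81 and 9.70 in ATRA-treated knockdown cells, with a difference of 0.75 (SE 0.20, limma adjusted p 0.27). Among 62 core and linker histone genes 49 had a positive difference (median 0.21). At an unadjusted p under 0.05, 7 were positive and 2 negative, against 5.71% and 9.58% of all genes. H2AC14, a replication-dependent histone, was at 6.30, 5.31 and 4.55 in ATRA-treated control cells and at 6.93, 6.58 and 6.77 in ATRA-treated knockdown cells, so the control values spread widely; histone genes can share probe sequence. Ciliary transport genes, also chosen after seeing values, had a median of 0.19 over 16. Of these, 4 were positive at an unadjusted p under 0.05, against 5.71% of all genes.

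MIR93, MIR106B and MIR25 lie within MCM7 on the same strand, and their probe sets can read the host transcript. MIR93 was at 7.79, 7.85 and 7.70 in ATRA-treated control cells and at 8.26, 8.16 and 8.23 in ATRA-treated knockdown cells, with a difference of 0.72 (SE 0.17, limma adjusted p 0.27). MIR25 had 0.40 (SE 0.15, limma adjusted p 0.28) and MIR106B had 0.31 (SE 0.16, limma adjusted p 0.36), while MCM7 had 0.59 (SE 0.17). They were chosen after their values were seen. The mature sequences below are from RefSeq (GRCh38.p14, minus strand), with the seed, bases 2 to 8, in capitals. The first pair share a seed. They lie at chr7:100093815-100093837, chr7:100094043-100094063 and chr7:100093571-100093592.
miR-93-5p: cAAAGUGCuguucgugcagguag
miR-106b-5p: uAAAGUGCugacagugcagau
miR-25-3p: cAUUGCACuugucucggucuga

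The largest positive values belonged to CLC, an eosinophil and basophil protein, and ALOX5AP, of leukotriene synthesis, named after their values were seen. ALOX5AP was at 10.57, 9.56 and 13.16 in untreated control cells and at 9.20, 8.81 and 8.03 in untreated knockdown cells. With ATRA it was at 13.55, 13.50 and 13.55 against 13.35, 13.41 and 13.44. The kinds of cell were apart in both states with the knockdown lower, and they lay much closer after ATRA. Scrambled replicate 2 stood highest untreated. The difference was 2.28 (SE 0.94, limma adjusted p 0.30) for ALOX5AP and 2.58 (SE 0.95, limma adjusted p 0.28) for CLC.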
